A study of Mus musculus with 30 samples.

Results

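The interval from 2 h to 5 h of cycloheximide in NIH/3T3 cells was examined, by comparing the 3 libraries taken at 5 h with the 3 taken at 2 h. The members were chosen by their labels alone, and they make up 6 of the 30 libraries of the series. NIH/3T3 is a mouse fibroblast line, and the cells used here carried a ROSA26 SLT knock-in and grew in DMEM with 10% fetal bovine serum. Cycloheximide (CHX) was given at 0.1 µg/mL to both groups, so that they differ in time and neither is an untreated control. The series followed this line and the embryonic stem cell line CGR8, which carries the same knock-in and grew in N2B27 medium with 2i and LIF, at 0, 1, 2, 5 and 48 h, with 3 replicates named A, B and C at each time. The labels do not say whether replicates were separate cultures, so p-values measure the spread between these libraries, which may be technical.

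Cycloheximide blocks the elongation step of translation on the ribosome. In serum-fed fibroblasts, growth-factor signalling through ERK and SRF turns on the immediate-early genes, whose mRNAs are made without new protein synthesis and carry elements that shorten their lives. The proteins of this first wave include transcription factors such as EGR1 and FOS, phosphatases that switch off ERK, and mRNA-binding proteins that shorten the life of the same mRNAs. Inhibitors of translation are known to raise and prolong this wave, which is called superinduction.

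Totals of the 6 libraries lay between 19.6 and 25.2 M counts, against 18.2 to 30.5 M over all 30, so that counting error was small except in genes of few counts. Levels are given as CPM, counts per M counts of the library, with totals scaled by the trimmed mean of M-values (TMM). Collagens and Vim were high, as in fibroblasts, and Col1a1 lay between 1590 and 2130 CPM of the unscaled library total over the 6 libraries. On the same scale, of 12 fibroblast markers 8 reached 1 CPM, while Lum had 0 counts and Thy1, Postn and Dcn stayed at or below 0.0932, 0.885 and 0.816 CPM. Of 8 embryonic stem cell markers no gene reached 1 CPM, and they summed to between 0 and 0.596 CPM. The summed smooth muscle markers, almost all Acta2, reached 803 to 1260 CPM in the 2 h libraries, above the 665 to 719 CPM of the 5 h libraries. Replicate A at 2 h stood apart. On the second principal component of log2 CPM over the 15 NIH/3T3 libraries, which held 20.7% of the variance, it lay at 25.02. There 2 h B and C were at -4.51 and -2.06 and the 5 h libraries between -41.1 and -37.3. The 0 h and 1 h libraries lay between 17.82 and 27.83, so 2 h A was placed among them. Replicate C at 1 h stood apart on the first component (48.1%). It was at 27.43, with 1 h A and B at -1.81 and -4.74 and 2 h A at 31.33. Counts for gene lists are given with and without 2 h replicate A where they change by over 1.5 times, and for the main lists in any case.

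Of 13941 genes tested, 3220 were called at an adjusted p under 0.05 (23.1%), 1479 higher at 5 h (10.6%) and 1741 lower (12.5%). Changes of at least 2-fold were found in 527 genes (3.78%), 275 higher (1.97%) and 252 lower (1.81%). The median log2 fold change of all genes was -0.013. The 3 values at 5 h lay wholly above or below the 3 at 2 h in 6085 genes (43.6%), 2957 higher (21.2%) and 3128 lower (22.4%). Without 2 h replicate A, 2543 genes were called, and without 5 h replicate B, 2064. Without 2 h replicate A 191 were higher and 256 lower by at least 2-fold. In the plot of fold change against level, the falls reached much further from 0 than the rises at levels above a few CPM. The 12 largest falls of genes with at least 10 CPM and no overlap between the groups ran from 6.24-fold to 112-fold, and the 12 largest rises from 2.72-fold to 4.24-fold. Fold changes are shares of the measured RNA, and in bulk RNA fewer cells with an mRNA and less of it per cell cannot be told apart.

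**Figure D1:**
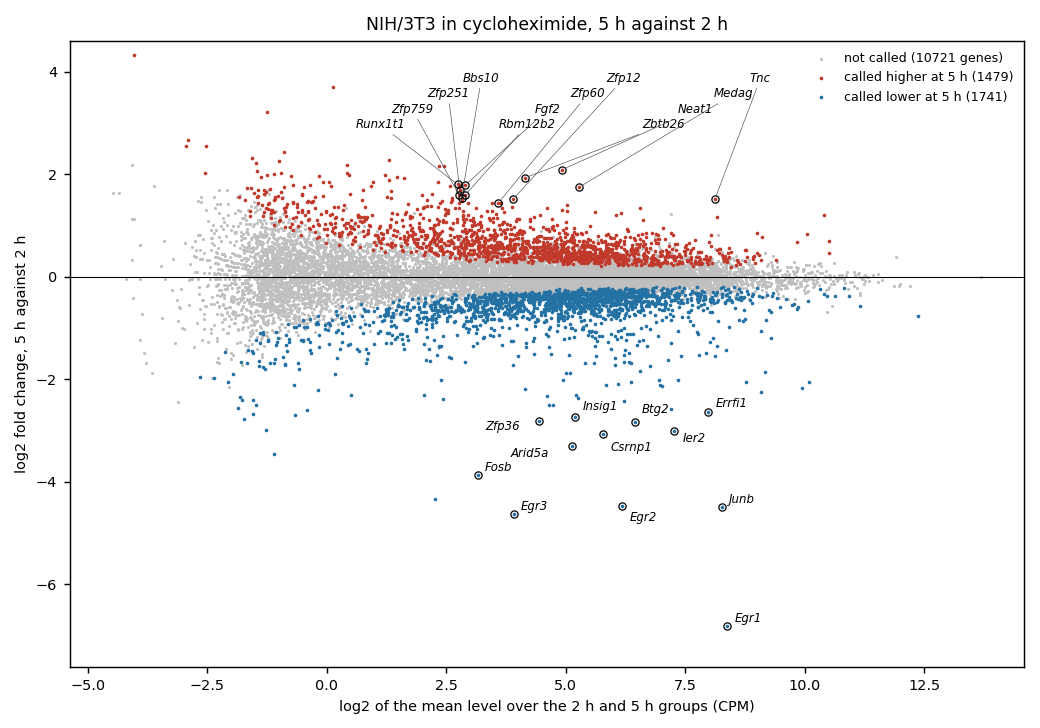
Log2 fold change of 5 h against 2 h (vertical axis) against the log2 of the mean CPM of both groups (horizontal axis) for the 13941 genes tested in NIH/3T3; red points were called higher (1479), blue points lower (1741), grey points were not called. Open circles mark the 12 largest falls and 12 largest rises among genes with at least 10 CPM in the higher group, with Egr1 lowest at -6.81.

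Transcription factors of the immediate-early wave fell together. Of 36 listed, 35 were tested, 30 were called lower, 22 of them by at least 2-fold, and Per1, Ier5l, Nr4a2, Nr4a3 and Cebpd were not called, against 12.5% and 1.81% of all genes. Their median log2 fold change was -1.15 beside -0.013 for all genes, and 30 were also called lower without 2 h replicate A. In 30 of the 35 the groups did not overlap and 5 h was lower, beside 22.4% of all genes. The list was drawn up with results of these libraries known, so its direction is not independent evidence. At 2 h against untreated cells 32 of the 35 had been called higher (16.1% of all genes). At 5 h against untreated cells 10 were called higher and 15 lower (24.0% and 27.1% of all genes). These comparisons share the 2 h or the 5 h libraries with the comparison above.

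The EGR zinc-finger factors, which read out ERK signalling, were among the deepest falls. Egr1 was at 750.0, 636.5 and 601.2 CPM in replicates A, B and C at 2 h and at 6.22, 5.15 and 6.37 CPM at 5 h, a fall of 112-fold (log2 -6.81, SE 0.22, adjusted p = 4.97e-12). All 5 h values lay far below all 2 h values and also below the 108.4 to 124.6 CPM of untreated cells. By 48 h Egr1 was back at 107 ± 2.31 CPM (SD, n = 3). Egr2 went from 155.0, 131.2 and 129.3 CPM to 6.76, 5.06 and 6.88 CPM (22.2-fold, adjusted p = 1.53e-11). Egr3 went from 32.2, 29.3 and 25.1 CPM to 1.44, 0.596 and 1.49 CPM (24.6-fold, adjusted p = 5.32e-08). Averaged over the 180 min between the groups, these falls equal 1 halving per 26.4 min for Egr1, 40.2 min for Egr2 and 39.0 min for Egr3.

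The AP-1 factors, dimers of FOS, JUN and ATF proteins, split into deep and shallow falls. Junb lay at 718.3, 523.5 and 523.0 CPM at 2 h and at 27.1, 23.8 and 27.9 CPM at 5 h (22.4-fold, adjusted p = 2.91e-11). Fos was rare at both times, with 10.6, 8.05 and 8.87 CPM at 2 h and 0.536, 0.510 and 0.279 CPM at 5 h (20.3-fold, adjusted p = 2.44e-09). Fosb fell from 21.1, 14.6 and 14.2 CPM to 1.40, 0.766 and 1.26 CPM (14.5-fold, adjusted p = 1.22e-07). At 5 h Junb lay below its untreated mean of 59.5 CPM (log2 -1.18, adjusted p = 2.14e-05), while Fos and Fosb were not called against untreated cells, where they averaged 0.597 and 1.44 CPM (adjusted p = 0.311 and 0.494). Jun, the main partner of FOS, fell 4.76-fold from 898 ± 106 to 189 ± 9.17 CPM. Atf3, a stress-induced member, fell 5.02-fold from 40.6 ± 12.7 to 8.10 ± 0.537 CPM, which was still above its untreated level of 3.20 ± 0.450 CPM (log2 1.32 for 5 h against 0 h, adjusted p = 0.000123). The remaining members moved less, with Fosl1 down 3.65-fold, Jund 2.01-fold and Fosl2 1.57-fold.

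The starts of some genes that fell together are shown, with and without 2 of the short elements that were searched for, beside those of a pair that rose. RefSeq windows of 300 bases on build GRCm38.p6, from 250 bases before to 50 after the annotated start, were found for 9547 of the 13941 genes tested. The windows below belong to Junb (chr8:84978699-84978998, minus strand), Fos (chr12:85473640-85473939, plus strand), Fosb (chr7:19309996-19310295, minus strand), Atf3 (chr1:191183284-191183583, minus strand), Nr4a1 (chr15:101266596-101266895, plus strand) and Btg2 (chr1:134079106-134079405, minus strand), which hold a match, to Egr2 (chr10:67535249-67535548, plus strand) and Jun (chr4:95052173-95052472, minus strand), which hold none, and, as genes that rose, to Fgf2 (chr3:37348403-37348702, plus strand) and Medag (chr5:149411499-149411798, plus strand). They were picked with their matches to these 2 elements, TGACG and TATAAA, known. Each is written 5′ to 3′ along its gene. Capitals mark TGACG on either strand (CGTCA where it lies on the other), the core of the cyclic AMP response element, and TATAAA, the TATA box.
Junb: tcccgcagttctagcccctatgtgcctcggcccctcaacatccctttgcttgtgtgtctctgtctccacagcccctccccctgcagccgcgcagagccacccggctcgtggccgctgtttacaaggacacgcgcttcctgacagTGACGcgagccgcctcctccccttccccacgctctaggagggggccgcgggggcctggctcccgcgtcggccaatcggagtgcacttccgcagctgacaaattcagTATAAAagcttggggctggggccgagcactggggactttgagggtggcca
Fos: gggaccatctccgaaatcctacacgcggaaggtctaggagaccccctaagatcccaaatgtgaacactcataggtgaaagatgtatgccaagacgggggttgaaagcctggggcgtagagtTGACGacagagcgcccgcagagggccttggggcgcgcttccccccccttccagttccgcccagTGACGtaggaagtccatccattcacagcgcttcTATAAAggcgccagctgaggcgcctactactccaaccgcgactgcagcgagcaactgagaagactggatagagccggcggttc
Fosb: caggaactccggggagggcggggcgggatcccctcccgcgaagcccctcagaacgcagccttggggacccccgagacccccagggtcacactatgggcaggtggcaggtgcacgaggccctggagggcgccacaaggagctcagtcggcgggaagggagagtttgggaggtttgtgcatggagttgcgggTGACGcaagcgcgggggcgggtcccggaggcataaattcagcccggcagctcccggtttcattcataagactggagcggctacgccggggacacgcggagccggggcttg
Atf3: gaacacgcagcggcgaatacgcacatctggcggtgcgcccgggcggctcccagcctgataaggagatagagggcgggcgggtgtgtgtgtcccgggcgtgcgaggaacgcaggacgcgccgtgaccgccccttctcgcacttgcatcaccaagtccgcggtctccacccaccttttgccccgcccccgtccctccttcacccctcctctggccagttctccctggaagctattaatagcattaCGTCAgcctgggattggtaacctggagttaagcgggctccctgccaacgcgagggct
Nr4a1: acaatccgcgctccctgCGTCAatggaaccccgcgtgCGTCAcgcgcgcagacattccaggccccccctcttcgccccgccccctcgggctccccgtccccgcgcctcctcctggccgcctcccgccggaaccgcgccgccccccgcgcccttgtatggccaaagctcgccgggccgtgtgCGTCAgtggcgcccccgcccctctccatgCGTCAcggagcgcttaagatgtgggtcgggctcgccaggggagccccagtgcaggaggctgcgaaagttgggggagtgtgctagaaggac
Btg2: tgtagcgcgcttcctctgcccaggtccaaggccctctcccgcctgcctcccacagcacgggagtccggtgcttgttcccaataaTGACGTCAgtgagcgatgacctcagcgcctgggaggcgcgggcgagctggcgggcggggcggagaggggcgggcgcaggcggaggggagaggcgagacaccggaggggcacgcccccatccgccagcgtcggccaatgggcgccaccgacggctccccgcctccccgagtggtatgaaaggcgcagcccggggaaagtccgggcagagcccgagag
Egr2: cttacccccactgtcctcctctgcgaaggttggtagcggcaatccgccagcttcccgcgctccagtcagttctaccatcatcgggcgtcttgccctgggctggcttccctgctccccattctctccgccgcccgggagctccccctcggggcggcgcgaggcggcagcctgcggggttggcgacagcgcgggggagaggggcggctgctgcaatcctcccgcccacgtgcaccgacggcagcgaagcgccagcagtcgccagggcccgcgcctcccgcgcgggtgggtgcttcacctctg
Jun: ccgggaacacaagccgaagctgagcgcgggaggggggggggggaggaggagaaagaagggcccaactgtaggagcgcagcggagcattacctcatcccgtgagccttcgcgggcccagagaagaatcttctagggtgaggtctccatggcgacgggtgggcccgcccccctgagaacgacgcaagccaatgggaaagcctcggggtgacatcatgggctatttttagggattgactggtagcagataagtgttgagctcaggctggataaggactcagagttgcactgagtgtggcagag
Fgf2: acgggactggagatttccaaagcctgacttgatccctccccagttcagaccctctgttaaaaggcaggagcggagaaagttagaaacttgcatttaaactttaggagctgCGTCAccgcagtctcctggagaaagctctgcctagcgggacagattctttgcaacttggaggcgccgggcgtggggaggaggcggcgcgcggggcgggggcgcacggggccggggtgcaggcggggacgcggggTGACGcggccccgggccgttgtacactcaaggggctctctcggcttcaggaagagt
Medag: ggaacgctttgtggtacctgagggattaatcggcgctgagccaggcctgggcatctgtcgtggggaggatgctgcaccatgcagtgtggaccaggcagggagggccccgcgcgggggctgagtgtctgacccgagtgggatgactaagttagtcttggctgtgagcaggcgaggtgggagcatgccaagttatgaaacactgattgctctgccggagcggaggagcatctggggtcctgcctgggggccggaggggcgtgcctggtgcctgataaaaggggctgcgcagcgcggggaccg
TGACG was found on either strand in 32.6% of all windows, in 33.1% of the 163 windows of genes called lower by at least 2-fold and in 22.0% of the 173 windows of genes called higher by at least 2-fold. Of the 25 immediate-early transcription factors with a window 15 held it. TATAAA was found in 6.77% of all windows, 13.5% of those at least 2-fold lower, 8.09% of those at least 2-fold higher and 6 of the 25 factors (24.0%). Matches are letters and not measured binding sites, and Fgf2, which rose, holds TGACG on both strands. The windows of Egr2, Jun, Zfp36 and Errfi1, which fell, hold neither motif, nor do those of Medag and Zbtb26, which rose.

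**Figure D2:**
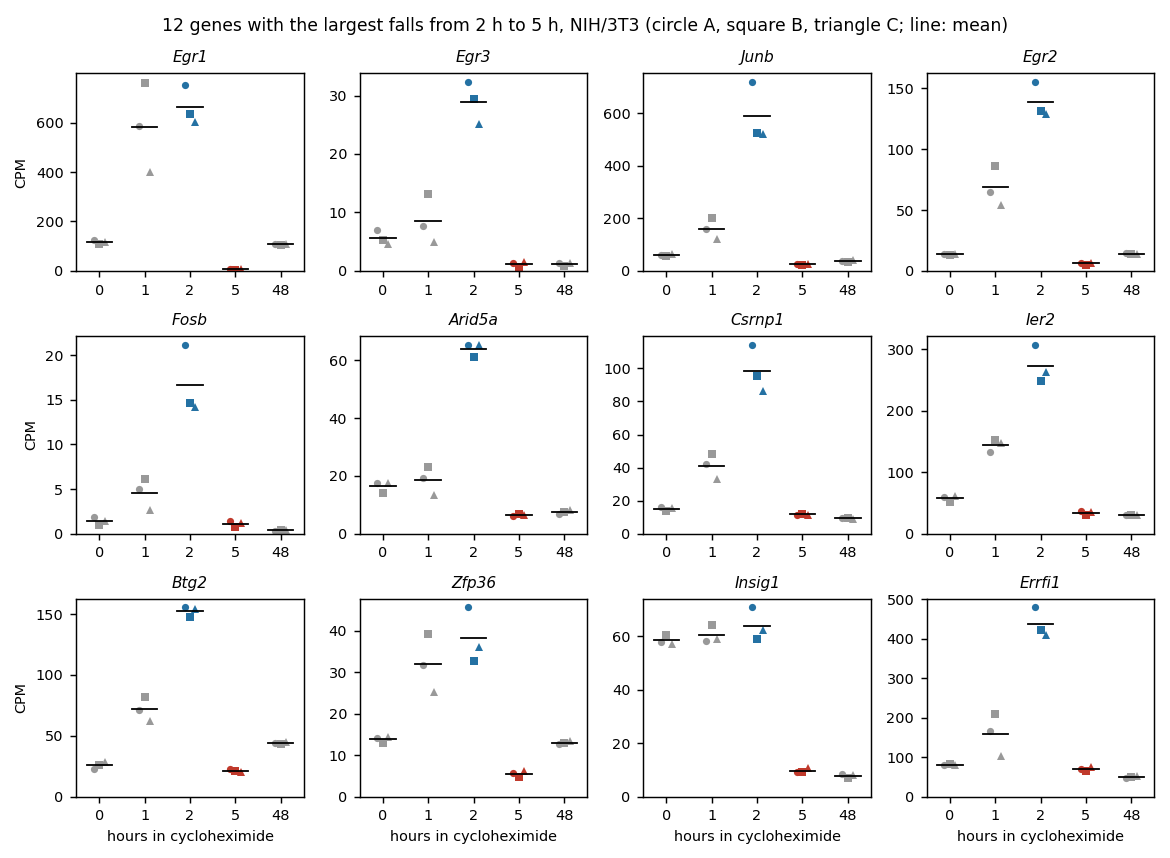
Level in CPM (vertical axis, linear and from 0) against hours in cycloheximide (horizontal axis, not to scale) for the 12 genes with the largest falls from 2 h to 5 h in NIH/3T3. Each point is 1 library (circle A, square B, triangle C; blue 2 h, red 5 h, grey other times) and the line is the mean of 3; the red points lie below the blue ones, as the choice of genes requires, and Insig1 is the panel where 2 h is close to 0 h.

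Other factors of the first wave followed. Ier2, a short-lived nuclear protein of serum-stimulated cells, went from 307.5, 249.0 and 263.1 CPM to 36.3, 30.5 and 35.3 CPM (8.03-fold, adjusted p = 1.53e-11). Arid5a, an RNA-binding protein that protects inflammatory mRNAs, went from 65.2, 61.1 and 65.4 CPM to 6.26, 6.72 and 6.51 CPM (9.83-fold, adjusted p = 3.92e-10). Csrnp1, a nuclear protein of early responses, fell 8.43-fold, Hes1, a Notch-pathway repressor, 4.97-fold and the orphan receptor Nr4a1 3.66-fold. In Csrnp1 an exon overlaps an antisense gene, and whether the authors counted by strand was not stated in the sources used here, so its level is uncertain. The Krüppel-like factors fell less. At 5 h Klf2, Klf6 and Klf10 were called above their untreated levels, Klf4 below it (log2 -0.31 for 5 h against 0 h, adjusted p = 0.0360), and Klf5 was not called (adjusted p = 0.215). Klf6 went from 739 ± 62.1 to 355 ± 7.07 CPM (2.08-fold) and Klf10 from 299 ± 16.7 to 138 ± 5.64 CPM (2.17-fold), with untreated means of 217 and 51.7 CPM. Myc, the growth factor-induced oncogene, fell 1.83-fold from 543 ± 44.9 to 297 ± 14.1 CPM, near its untreated 264 CPM. Cebpd was not called, at 16.8 CPM at 2 h and 19.3 CPM at 5 h (adjusted p = 0.205).

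Feedback inhibitors of signalling mostly fell, but a few rose. Of 34 tested, 21 were called lower, 13 of them by at least 2-fold, and 5 higher, beside 12.5%, 1.81% and 10.6% of all genes. Their median log2 fold change was -0.67. Without 2 h replicate A the counts were 21 and 6. At 2 h against untreated cells 22 had been called higher and 2 lower, beside 16.1% and 18.9% of all genes. Errfi1, which blocks the EGF receptor kinase, went from 479.0, 420.7 and 408.3 CPM to 70.0, 65.7 and 74.0 CPM (6.24-fold, adjusted p = 1.75e-08). Ier3, which limits dephosphorylation of ERK, fell 6.02-fold from 251 ± 8.56 to 41.8 ± 1.77 CPM. The regulator of G-protein signalling Rgs16 fell 5.65-fold and the receptor tyrosine kinase inhibitors Spry4 and Spry2 4.59-fold and 4.26-fold. Spry2 fell below its untreated level, from 114.1, 103.6 and 112.3 CPM at 2 h to 26.2, 24.6 and 26.7 CPM at 5 h against 52.9 CPM in untreated cells.

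Among the dual-specificity phosphatases, which switch off MAP kinases, 7 of 8 tested were called lower, beside 12.5% of all genes. These falls ran from Dusp5 (4.16-fold) through Dusp1 (3.17-fold) and the ERK phosphatase Dusp6 (2.93-fold) to Dusp10 (1.95-fold), and Dusp14 was the one not called. Dusp6 lay at 410.3, 423.0 and 409.5 CPM at 2 h and at 142.2, 132.7 and 149.9 CPM at 5 h, near its untreated mean of 126 CPM. The cytokine inhibitors Socs3 and Socs1 fell 2.18-fold and 1.80-fold. Opposite in direction, Rgs2 rose from 53.7, 53 and 54.5 CPM to 136.4, 138.8 and 131.1 CPM (2.52-fold, adjusted p = 1.06e-07). Nab2, a co-repressor that binds EGR proteins, rose 1.82-fold from 30.4 ± 1.32 to 55.3 ± 3.99 CPM (adjusted p = 1.16e-05) in the hours in which Egr1, Egr2 and Egr3 fell. Exons of Nab2 overlap those of the antisense gene Stat6. Its relative Nab1, Spry1 and the NF-kB inhibitor Nfkbia rose by 1.24-fold, 1.36-fold and 1.24-fold, and each of these 3 calls was lost in at least 1 alternative analysis.

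Regulators of mRNA decay were counted next. Of 24 tested, 8 were called lower and 1 higher, beside 12.5% and 10.6% of all genes. The median was -0.18, and 7 were called lower without 2 h replicate A. Btg2, a deadenylase-binding antiproliferative protein, went from 155.8, 147.9 and 153.9 CPM to 22.3, 21.3 and 20.3 CPM (7.16-fold, adjusted p = 1.72e-11). Zfp36, which binds AU-rich elements and recruits deadenylases, went from 45.7, 32.7 and 36.1 CPM to 5.603, 4.64 and 6.09 CPM (log2 -2.81, adjusted p = 4.54e-09). Its paralogs Zfp36l1 and Zfp36l2 fell 3.57-fold and 2.56-fold, and Btg1 fell 2.11-fold. At 5 h the 3 Zfp36 family mRNAs lay below their untreated levels (log2 -1.35, -0.84 and -1.05 for 5 h against 0 h in Zfp36, Zfp36l1 and Zfp36l2), while Btg1 was not called against untreated cells (-0.045, adjusted p = 0.620). Of the CCR4-NOT subunits Cnot1, Cnot6, Cnot7 and Cnot8 were not called. Cnot6l was the 1 rise (1.29-fold), and that call was lost when any 1 of 5 of the 6 libraries was left out (adjusted p from 0.0619 to 0.126).

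Secreted and surface products of serum-stimulated cells fell more often than they rose, by count. Of 33 tested, 14 were called lower, 10 by at least 2-fold, and 4 higher, beside 12.5%, 1.81% and 10.6% of all genes. The share that rose was thus near that of all genes. The median was -0.44, and without 2 h replicate A 18 were called lower and 3 higher. Ptgs2, the inducible prostaglandin synthase, went from 1291, 1921 and 1650 CPM to 351.2, 328.2 and 396.7 CPM (4.52-fold, adjusted p = 2.44e-06). Hbegf, an EGF-family ligand, went from 231.1, 186.7 and 198.3 CPM to 48.7, 44.3 and 48.7 CPM (4.35-fold, adjusted p = 6.81e-10). The matricellular genes Ccn1 and Ccn2 fell 3.61-fold and 2.41-fold but stayed above their untreated levels. Edn1 (endothelin), Has2 (hyaluronan synthase) and Vegfa fell 2.59-fold, 2.91-fold and 2.07-fold. The rises were Fgf2, Pdgfa (1.42-fold), Plat (1.41-fold) and Timp1 (1.26-fold). Fgf2, a growth factor without a secretion signal, went from 3.33, 3.44 and 3.26 CPM to 10.8, 12.5 and 11.3 CPM (3.44-fold, adjusted p = 4.91e-08). Exons of Fgf2 overlap the antisense gene Nudt6, and the call of Timp1 was lost when any 1 of 5 libraries was left out.

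Genes of BMP and TGF-beta feedback gave 8 falls and 3 rises among 17 tested (median -0.31), and 8 and 5 without 2 h replicate A. Among all genes 12.5% were called lower and 10.6% higher. Id1, an inhibitor of basic helix-loop-helix factors, went from 227.7, 187.2 and 219.1 CPM to 46.0, 51.0 and 46.9 CPM (4.41-fold, adjusted p = 4.14e-10). Id3 fell 4.01-fold, the inhibitory Smad7 3.18-fold and the co-repressor Skil 3.07-fold. The rises were Ltbp1, which anchors latent TGF-beta (2.30-fold, adjusted p = 2.97e-05), Pmepa1 (1.73-fold) and Tgfb3 (log2 0.42, adjusted p = 0.00964).

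Sterol genes formed the second list that fell almost throughout, and here Insig1 had not been called at 2 h against untreated cells (adjusted p = 0.298). Of 25 tested genes of cholesterol synthesis and uptake 21 were called lower, 7 by at least 2-fold, beside 12.5% and 1.81% of all genes. Their median was -0.59. Without 2 h replicate A 18 were called lower. Insig1, the sterol-responsive retention factor of the SREBP pathway, was at 57.9, 60.4 and 57.3 CPM in untreated cells, 70.8, 59.0 and 62.3 CPM at 2 h and 9.15, 9.02 and 10.6 CPM at 5 h (6.68-fold below 2 h, adjusted p = 1.72e-11). The synthesis enzymes Msmo1 and Hmgcs1 fell less, by 3.19-fold and 2.03-fold. By 48 h Insig1 was still at 7.86 ± 0.764 CPM.

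Stress programmes fell in part, and their counts are read against the 12.5% of all genes called lower and the 10.6% called higher. NRF2 antioxidant genes gave 15 falls among 23 tested (median -0.46), with 12 falls without 2 h replicate A. Among them Hmox1, the haem-degrading oxygenase, fell 2.89-fold from 58.8, 45.7 and 45.6 CPM to 16.4, 18.4 and 17.1 CPM, the cystine transporter Slc7a11 2.28-fold and the glutathione-synthesis subunit Gclm 2.22-fold. Heat-shock factor 1 chaperones gave 8 falls among 22 tested (median -0.25), and 6 falls without that library. Hspa8, the constitutive HSP70 chaperone and the most abundant gene with a fall of over 4-fold, went from 2044, 1530 and 1678 CPM to 420.4, 424.3 and 419.3 CPM (4.16-fold, adjusted p = 2.66e-07). Its co-chaperones Dnajb1 and Bag3 fell 2.38-fold and 2.16-fold, whereas Hsp90aa1 lay at 1870, 1904 and 1951 CPM and then at 1773, 1757 and 1756 CPM and was not called. ATF4 targets gave 21 falls and 2 rises in 39 (median -0.41), and 16 falls without 2 h replicate A. The phosphatase subunit Ppp1r15a, which restarts translation by removing phosphate from eIF2-alpha, fell 5.16-fold from 64.2 ± 9.53 to 12.5 ± 1.55 CPM, and the glutathione-degrading Chac1 rose 1.71-fold. Exons of Ppp1r15a overlap the antisense gene Tulp2.

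Targets of p53 gave 13 falls among 23 tested (median -0.53), and 12 falls and 1 rise without 2 h replicate A. The list shares Btg2 with the decay regulators. For this list and those that follow, the shares of all genes are 12.5% lower and 10.6% higher. Plk3, a polo-like kinase, fell 4.05-fold, the CDK inhibitor Cdkn1a 2.08-fold from 220.6 ± 17.9 to 106 ± 2.52 CPM, and Mdm2, the ubiquitin ligase of p53, 1.73-fold. Genes of G2 and mitosis gave 16 small falls and 1 rise in 32 (median -0.31), and 17 falls only without 2 h replicate A, with Plk1 down 1.64-fold. Members of the MYC network gave 5 falls among 9 tested, of which Mxd1, a MAX partner that opposes MYC, fell 2.16-fold. Tubulin genes gave 6 falls among 12 tested, but 1 fall without 2 h replicate A, and the one with the largest fall, Tuba1c, changed 1.58-fold. In the actin cytoskeleton list 6 of 26 were called lower and 1 higher, and 3 and 1 without 2 h replicate A. Actb lay at 8683 CPM in that library and at 5523 and 5708 CPM in the other 2 h libraries, against 3752 to 4034 CPM at 5 h. Acta2, which makes up almost all of the smooth muscle marker sum, is a member of this list, so the sum is not a separate observation. The part of Acta2 in the result was not tested.

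**Figure D3:**
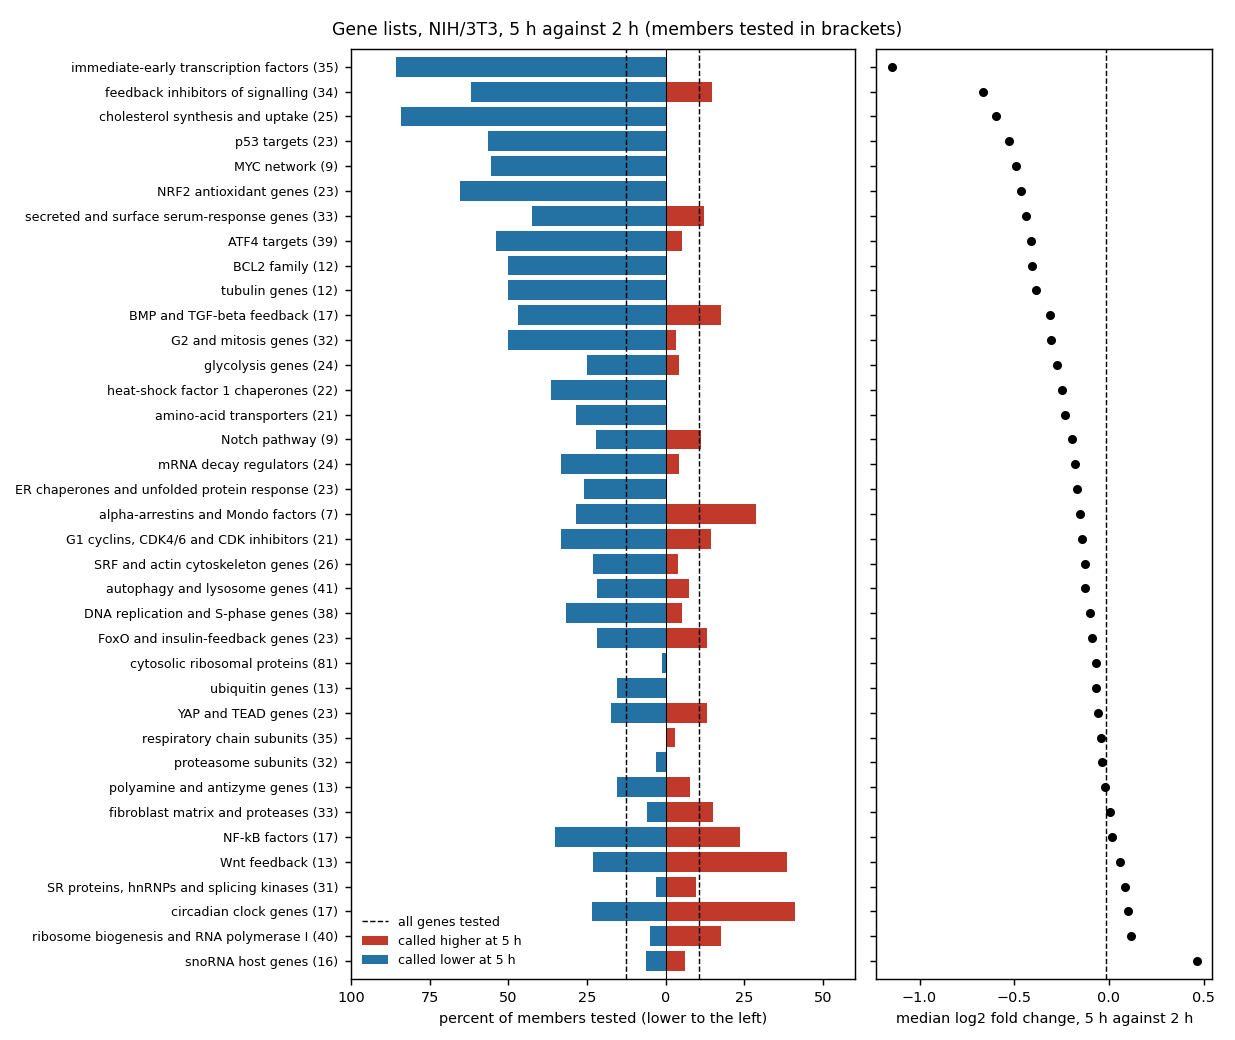
Left, percent of the tested members of each of 37 gene lists called higher (red, right of 0) or lower (blue, left of 0) at 5 h against 2 h in NIH/3T3, with dashed lines at the 10.6% and 12.5% of all genes; right, the median log2 fold change of the list, with a dashed line at the -0.013 of all genes. Lists are ordered by their median, from immediate-early transcription factors (-1.15) at the top to snoRNA host genes (0.47) at the bottom.

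Ribosomal, proteasome and respiratory chain genes had few calls. Of 81 cytosolic ribosomal protein genes 1 was called lower (median -0.069), and that call, Rpl28, was lost without 2 h replicate A. Of 32 proteasome subunits 1 was called lower, the ubiquitin receptor Adrm1 (1.67-fold), and of 35 respiratory chain subunits 1 was called higher, Ndufs1 (1.25-fold). All these shares lie below those of all genes. The median of the 16 snoRNA host genes was the highest of the lists at 0.47, but 1 member was called higher and 1 lower, and the median was 0.14 without 2 h replicate A. There Epb41l4aos lay at 4.75 CPM in 2 h replicate A, 11.3 and 12.1 CPM in B and C, and 16.7 to 17.6 CPM at 5 h.

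The remaining lists are read against the 10.6% of all genes called higher and the 12.5% called lower. Of 24 glycolysis genes 6 were called lower and 1 higher, led by hexokinase Hk2 (2.39-fold lower) and opposed by Pfkfb3 (1.56-fold higher), which makes an activator of glycolysis. Of 21 amino-acid transporters 6 were called lower, and of 23 ER chaperones and unfolded-protein factors 6, led by the factor Xbp1 (2.06-fold). Without 2 h replicate A each of these 3 lists had 4 falls. Of 12 BCL2 family genes 6 were called lower, or 4 without that library. Genes of S phase gave 12 falls and 2 rises in 38, and 14 and 1 without it. G1 regulators gave 7 falls and 3 rises in 21, and 7 falls only without it. FoxO and insulin-feedback genes gave 5 falls, led by the TORC1 inhibitor Ddit4 (2.03-fold), and 3 rises in 23, and 4 and 3 without it. Autophagy and lysosome genes gave 9 falls and 3 rises in 41, and 5 and 3 without it.

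Among the signalling lists, Wnt feedback genes gave 5 rises and 3 falls in 13, led by the Wnt effector Lef1 (1.98-fold higher) and the inhibitor Apcdd1 (1.67-fold lower). Among 9 Notch pathway genes the glycosyltransferase Lfng rose 2.44-fold while Hes1, the classical target, was 1 of 2 that fell. Among 23 YAP and TEAD genes 3 rose, led by the LIM protein Ajuba (2.30-fold), and 4 fell, among them Ccn1 and Ccn2, and the counts were 4 and 5 without 2 h replicate A. NF-kB factors gave 6 falls, led by the inhibitor Tnfaip3 (1.95-fold), and 4 rises in 17, led by Birc2 (1.57-fold), and 4 of each without that library. Shares near or below those of all genes were found in splicing factors (3 of 31 higher and 1 lower, or 2 and 1 without it), polyamine genes (1 of 13 higher and 2 lower, or 1 and 1) and ubiquitin genes (2 of 13 lower, with and without it).

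Among genes with at least 10 CPM the largest rises from 2 h to 5 h were smaller than the largest falls and came from other kinds of gene. At all levels, 275 genes rose and 252 fell by at least 2-fold. The median level of these rises in the higher group was 2.94 CPM, and that of the falls 13.44 CPM. Neat1, the long noncoding RNA that scaffolds paraspeckles, rose most of the 12 named rises, from 4.15, 17.6 and 12.4 CPM to 48.3, 49.8 and 49.3 CPM (4.24-fold, SE 0.38 on the log2 scale, adjusted p = 0.000841). The 2 h values were scattered and the 5 h values close together, and without 2 h replicate A the log2 change was 1.70 in place of 2.09. It went on to 122 CPM at 48 h. Zbtb26, a zinc-finger repressor, went from 4.91, 9.45 and 7.46 CPM to 27.1, 27.9 and 28.7 CPM (3.79-fold, adjusted p = 6.17e-06), and its exons overlap those of Zbtb6 on the same strand. Runx1t1, a co-repressor, rose 3.48-fold, Medag, linked to adipocyte differentiation, 3.35-fold, Rbm12b2, an RNA-binding protein, 3.00-fold and Bbs10, a ciliary chaperonin-like protein, 2.899-fold.

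Tnc was the most abundant of the 12 named rises. This gene for tenascin-C, a matrix glycoprotein of wounds and development, went from 120.4, 166.2 and 147.4 CPM to 373.4, 409.2 and 453.1 CPM (log2 1.51, adjusted p = 2.00e-06) and was at 83.6 CPM at 48 h. It belongs to the matrix list, where 5 of 33 were called higher and 2 lower, beside 10.6% and 12.5% of all genes. The median of that list was 0.008, and the counts were 4 and 1 without 2 h replicate A. The other abundant rises there were fibronectin, Fn1, from 1104 ± 110 to 1798 ± 159 CPM (1.63-fold, adjusted p = 0.00449), and the metalloprotease inhibitor Timp3 from 768 ± 112 to 1365 ± 35.9 CPM (1.78-fold, adjusted p = 0.000108). The fibrillar collagen Col1a1 was not called (adjusted p = 0.836).

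**Figure D4:**
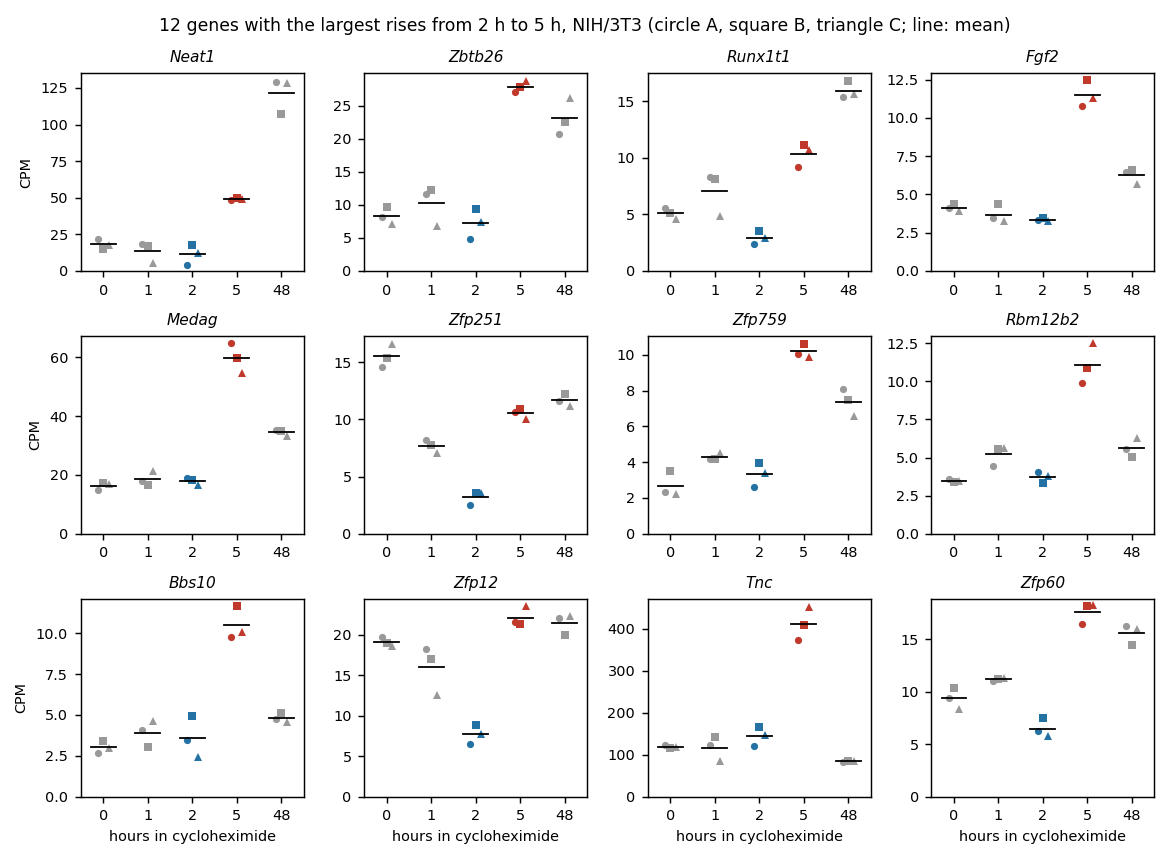
Level in CPM (vertical axis, linear and from 0) against hours in cycloheximide (horizontal axis, not to scale) for the 12 genes with the largest rises from 2 h to 5 h in NIH/3T3. Each point is 1 library (circle A, square B, triangle C; blue 2 h, red 5 h, grey other times) and the line is the mean of 3; Zfp251 and Zfp12 were lower at 2 h than at 0 h, while Tnc and Medag were at 2 h close to 0 h.

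Zinc-finger genes named Zfp with a number were common among the rises, a group chosen after its values were seen. They made up 2.38% of all genes tested, 10.7% of those called higher and 22.6% of those higher by at least 2-fold. Of 332 tested, 158 (47.6%) were called higher and 20 lower, with a median of 0.45, and the counts were 125 and 22 without 2 h replicate A. Zfp251 showed a dip and a partial return, with 14.6, 15.3 and 16.6 CPM in untreated cells, 2.51, 3.56 and 3.56 CPM at 2 h and 10.6, 10.9 and 10.0 CPM at 5 h (3.24-fold above 2 h, adjusted p = 1.04e-07). Zfp12 dipped too, from 19.1 ± 0.572 CPM to 7.70 ± 1.15 CPM at 2 h, and at 5 h, at 22.1 ± 1.27 CPM, it was not called against untreated cells (adjusted p = 0.171). Zfp759 did not dip: it was at 2.69 ± 0.707 CPM untreated, 3.32 ± 0.675 CPM at 2 h and 10.2 ± 0.386 CPM at 5 h. Members of this family resemble each other in sequence, so reads may be split between them. Genes called higher had a lower GC content (median 45.7% of the longest transcript) than all genes (49.3%) or those called lower (52.2%), and Zfp genes had 43.6%. After removing trends on GC and length 160 Zfp genes were called higher and 33 lower, while 4022 genes were called in all in place of 3220. The part of GC content in the Zfp changes was not tested.

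Alpha-arrestins, adaptors that trigger receptor and glucose-transporter uptake, went in opposite directions, with 2 of 7 tested in that list called higher and 2 lower, or 1 and 1 without 2 h replicate A. Among all genes 10.6% were called higher and 12.5% lower. Arrdc4 rose from 16.7, 18.2 and 17.9 CPM to 42.7, 41.4 and 45.9 CPM (2.46-fold, adjusted p = 3.04e-08). Arrdc3 fell from 82.1, 127.4 and 114.6 CPM to 46.2, 44.6 and 47.1 CPM (2.35-fold, adjusted p = 2.95e-06). Txnip, which also binds thioredoxin, rose 1.42-fold from 110.1, 166.6 and 164.4 CPM to 206.5, 215.6 and 202.9 CPM (adjusted p = 0.0243), but that call was lost without 2 h replicate A (adjusted p = 0.107) and without 5 h replicate A, B or C (0.0589, 0.0822 and 0.0550). In untreated cells it was at 21.5 CPM.

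Clock genes moved on both sides. Of 17 tested, 7 were called higher and 4 lower (median 0.10), beside 10.6% and 12.5% of all genes. Without 2 h replicate A the counts were 5 and 3. Higher at 5 h were Cry1, a repressor of the clock (2.18-fold, from 16.5 ± 1.38 to 35.9 ± 1.55 CPM, adjusted p = 6.05e-07), the activator Arntl (1.78-fold), Per3, Dbp and Hlf (1.88-fold, 1.90-fold and 2.01-fold). Lower were Nfil3 (1.98-fold) and Nr1d1, a repressor of Arntl (1.81-fold). Exons of Nr1d1 overlap those of Thra on the other strand, and those of Dbp overlap Sphk2. Ribosome biogenesis genes gave 7 small rises and 2 falls in 40 (median 0.12), led by Nop56 (1.59-fold), with Noc3l at 1.40-fold and Heatr1 at 1.32-fold.

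A choice of genes was also made by 1 h against 0 h, a contrast between libraries other than those compared. The filter, the scaling and the spread used by its test came from the fit of all NIH/3T3 libraries. The choice was therefore not fully independent of the 2 h and 5 h libraries. At 1 h against 0 h 91 genes were called higher, and of these 56 were called lower at 5 h against 2 h, 11 higher and 24 not at all, beside 12.5% lower and 10.6% higher among all genes. Their log2 fold changes ran from -6.81 to 1.33 with a median of -0.81. The size of the set and the median depended on single libraries: without 1 h replicate C 430 genes were chosen, 132 of them were called lower and the median was -0.057, and without 0 h replicate B 175 were chosen, 56 were lower and the median was 0.003. Of the 11 genes called lower at 1 h, 3 were called higher at 5 h against 2 h and 4 lower.

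The same hours in the stem cells gave another picture for part of the first wave and for part of several other lists. The 2 lines grew in different media, with serum for NIH/3T3 and with 2i and LIF for CGR8. Line and medium therefore cannot be told apart in any difference below. In CGR8 alone, 3051 of 15933 genes were called (19.1%), and of 31 immediate-early factors tested there 9 were called lower and 3 higher, beside 11.2% and 7.91% of all genes. The difference between the lines was tested as an interaction over all 30 libraries, and 1290 of 17549 genes were called (7.35%), 633 with the more positive change in CGR8 and 657 with the more negative. Without CGR8 5 h replicate C 1981 were called, and from the 12 libraries of 2 h and 5 h alone 589. How the calls divided changed with the scaling: the share that was more positive in the stem cells was 49.1% by TMM, 43.1% by relative log expression factors and 23.8% by library size alone. Of the 35 immediate-early factors 17 were called, all with the more positive change in CGR8, and of 34 feedback inhibitors 17, of which 15 were more positive in CGR8. Of 25 sterol genes 6 were called, all more positive in CGR8. Sterol genes fell in CGR8 as well, where 13 of 26 tested were called lower and 0 higher. Lists outside the first wave also differed. Of 38 S-phase genes 18 were called and of 24 decay regulators 9, all more positive in CGR8. Of 26 p53 targets 13 were called, 12 of them more positive. Clock genes gave 6 of 17 and YAP and TEAD genes 6 of 24, and in each 5 were more negative in CGR8.

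Junb had the largest difference among genes with at least 10 counts in each of the 12 libraries of 2 h and 5 h. It fell in NIH/3T3 (log2 -4.49) and rose in CGR8 from 17.3, 12.4 and 13.0 CPM to 34.5, 30.5 and 27.8 CPM (log2 1.12), a difference of 5.61 (SE 0.22, adjusted p = 2.71e-16). Btg2 and Id1 likewise fell in the fibroblasts and rose in the stem cells, with differences of 3.74 (adjusted p = 1.50e-15) and 3.63 (adjusted p = 2.98e-11). The starting levels were unlike: at 2 h the mean of Btg2 was 151 CPM in NIH/3T3 and 13.4 CPM in CGR8. For Id1 these means were 209 and 1.95 CPM, and CGR8 reached 5.52 CPM at 5 h. Egr1 and Egr2 fell in CGR8 too (log2 -5.72 and -3.09, adjusted p = 1.17e-14 and 0.0210), and Egr3 was at -3.98 there (adjusted p = 0.147). The line differences of Egr1, Egr2 and Egr3 were not called (adjusted p = 0.110, 0.825 and 0.884). They were 1.09, 1.38 and 0.64, with SEs of 0.41, 2.26 and 1.30. With the large SEs of Egr2 and Egr3 the test could not tell whether the lines differed in these 2 genes. Serpinb9b, a serine protease inhibitor, Irgm1, an interferon-inducible GTPase, and Nr2f2, an orphan nuclear receptor, went the other way. Serpinb9b rose slightly in the fibroblasts (log2 0.48) and fell in the stem cells (-2.14), a difference of -2.62 (adjusted p = 2.77e-10), and Irgm1 and Nr2f2 differed by -2.34 and -2.18. Levels of the last 2 were low in CGR8, where Irgm1 went from 2.69 to 0.851 CPM and Nr2f2 from 2.20 to 0.575 CPM. The difference of Neat1 (-2.26, adjusted p = 0.0442) was lost in 10 of the alternative analyses, and that of the microRNA gene Mir6236 (3.59, adjusted p = 4.85e-05) rests on scattered libraries, with 29.6, 15.5 and 9.30 CPM at 2 h in NIH/3T3.

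**Figure D5:**
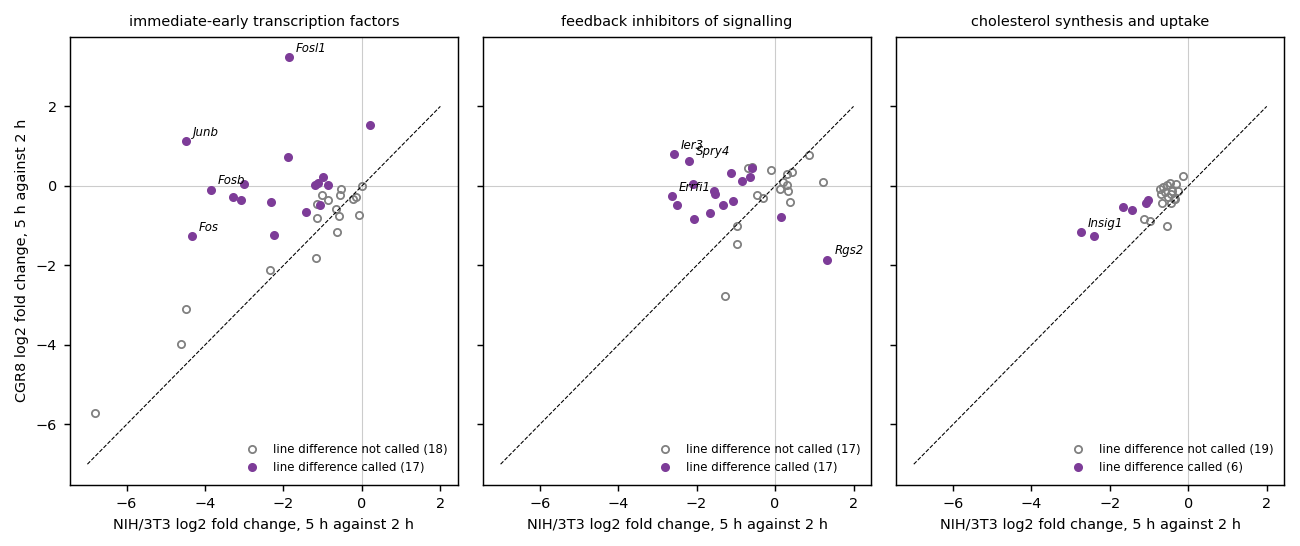
Log2 fold change of 5 h against 2 h in CGR8 (vertical axis) against that in NIH/3T3 (horizontal axis) for members of 3 gene lists; filled points had a called difference between the lines (17 of 35, 17 of 34 and 6 of 25) and the dashed line marks equal change. The 17 filled points of the immediate-early factors all lie above the line, and the unlabelled open point lowest in that panel is Egr1.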

How the data were processed

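RNA of 30 libraries, 15 from each line, was measured by RNA sequencing, and the deposited table holds the authors' raw counts per gene, whole numbers for 57186 Ensembl identifiers. Per the submitters' processing notes STAR, DESeq2 and genome build GRCm39 were used; the counting program and its strand setting are not given in the sources used here. Symbols were matched for 90.7% of identifiers. Library totals ran from 18.2 to 30.5 M counts.

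Genes were kept with edgeR's filterByExpr (minimum count 10, minimum total 15), leaving 13941, and scaled by TMM. The 15 NIH/3T3 libraries were fitted in 1 model with time as a factor, and 5 h against 2 h was tested with edgeR 4.0.16 (quasi-likelihood F test, R 4.3.3) and Benjamini-Hochberg adjustment over all genes, with a threshold of 0.05. SE is the standard error of the fitted log2 fold change. The line difference was an interaction contrast over all 30 libraries, adjusted over 17549 genes. Alternatives were relative log expression (RLE) factors, library size alone, DESeq2 1.42.0, limma 3.58.1 (voom with sample quality weights), no filter, a mean of at least 5 CPM, the compared libraries alone, a replicate block, each library left out, and GC and length offsets, the last chosen after seeing the data. The scripts were tested on simulated data.

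Genes named were the 12 largest rises and falls among called genes whose groups did not overlap and whose higher mean reached 10 CPM, the largest called rise and fall of each list, members of 4 lists described by role, and the 4 largest line differences in each direction. Others, among them Msmo1, Dnajb1, Id3, Smad7, Zfp36l1, Fn1, Timp3, Arntl, Col1a1 and the Zfp genes, were named after their values were seen. The members and lists were chosen with earlier results of these data known. Exons of further named genes overlap another gene, and their levels are uncertain too: Zfp36, Neat1, Medag, Rbm12b2, Fosl1, Jund, Cebpd, Dusp5, Rgs16, Spry1, Edn1, Ccn2, Has2, Pdgfa, Txnip, Nop56, Ndufs1, Cdkn1a, Plk1, Plk3, Zfp36l1, Zfp36l2, Hmgcs1, Fn1, Arntl and Serpinb9b. In Neat1 and Medag the overlapping genes lie on the same strand, unlike that of Csrnp1, so counting by strand would not separate them. Replicate letters were checked for pairing: deviations from group means correlated at 0.058, 0.061 and -0.037 for A, B and C, so the letters were not taken as pairs. No 2 replicates agreed within sampling noise. Values of some list members are not reported here.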

Additional observations from a re-analysis of the deposited data

Results flagged for a closer look

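For 22 of 29 genes named by size of change or of line difference, the change from 2 h to 5 h differed between NIH/3T3 and CGR8 by the interaction test of edgeR's quasi-likelihood fit over all 30 libraries. The differences are given as the log2 change in CGR8 minus that in NIH/3T3. In 11 genes the change was more positive in CGR8. The differences were 5.61 for Junb, 3.76 for Fosb, 3.74 for Btg2, 3.63 for Id1, 3.59 for Mir6236 and 3.04 for Ier2, and 3.02 for Arid5a, 2.92 for Zfp36, 2.73 for Csrnp1, 2.39 for Errfi1 and 1.57 for Insig1. In the other 11 it was more negative in CGR8. The differences were -0.83 for Zfp251, -1.05 for Rbm12b2, -1.11 for Zfp12, -1.44 for Zfp60, -1.56 for Bbs10 and -2.003 for Zfp759, and -2.18 for Nr2f2, -2.21 for Fgf2, -2.26 for Neat1, -2.34 for Irgm1 and -2.62 for Serpinb9b. Adjusted p-values ran from 2.71e-16 for Junb to 0.0442 for Neat1. The 8 genes with the largest differences had been chosen by this same test, so their differences are a description. Of the 29 genes, 24 were the largest falls and rises in NIH/3T3, and that change is itself part of the difference tested. Such a choice favours more positive differences for the falls and more negative ones for the rises. The count of 22 therefore cannot be read against the 7.35% called among all genes.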

How the results depend on the processing

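Called genes numbered 5326 with voom and sample quality weights and between 2064 and 3477 with 1 library left out, against 3220. Changes of at least 2-fold numbered 237 at a mean of at least 5 CPM and between 447 and 622 with 1 library left out, against 527. The line difference gave 2684 calls with voom, 589 from the 12 libraries alone and between 956 and 1981 with 1 library left out, against 1290. With a replicate block the 3 counts were 3308, 522 and 1260; the letters share only a name. The median of the genes called higher at 1 h, -0.805, became -0.910 with RLE factors, -1.135 by library size alone, -0.194 with DESeq2, 0.146 with voom, -0.092 with no filter, -0.556 at 5 CPM, -0.532 with the replicate block, -0.315 with GC and length offsets, and between -1.375 and 0.003 with 1 library left out. That of the genes called lower at 1 h, 0.124, became -0.110, -0.172, -0.083 and -0.150 with RLE factors, library size, DESeq2 and voom, -0.053 with the replicate block, -0.090 with GC and length offsets, and between -0.087 and 0.188 with 1 library left out. The number of genes chosen at 1 h changed under these settings too, and the cause was not tested. Where a 2 h or 5 h library was left out, the genes chosen in the main fit were kept, so their number could not change. Cnot6l went to -0.021 with GC and length offsets. Of 2557 alternative values for 171 single-gene results 2455 kept direction and call, 95 lost the call and 6 gained one. For the 24 genes of the 12 largest falls and rises all 359 values kept both. With 3 libraries a group, changes in genes of few counts are the least precise.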
